A study of Danio rerio with 5 samples.

Results

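Circular RNAs (circRNAs) whose back-splice joined positions more than 100 kb apart in the genome are described here across early zebrafish development. The span was counted as end minus start plus 1 in the deposited coordinates, introns included, and chromosome 4 was left out. The rule gave 316 circRNAs of the 9559 listed in any of 5 libraries, with 445 listings and 5841 junction reads. They lay on 24 chromosomes, and their spans ran from 100071 to 487498 bp with a median of 155356 bp. The 3 just over the threshold, chr1:41673743-41773813, chr7:23086750-23187070 and chr19:1529692-1630109, spanned 100071, 100321 and 100418 bp and had 2 reads each in 1 library. The 3 just under it, chr20:33653538-33753413, chr6:37004256-37104113 and chr24:33588070-33687760, spanned 99876, 99858 and 99691 bp, were listed in 4, 5 and 1 libraries, and had at most 43, 27 and 4 reads in a library. No listed circRNA of any chromosome spanned 500 kb or more.

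The embryos were wild-type zebrafish of the strain labelled Tubingenz, whole and untreated, and RNA was depleted of ribosomal RNA before strand-specific sequencing. Each of 5 ages in hours post fertilization (hpf) had 1 library: the blastula at 4.5, the gastrula at 8, segmentation at 24, the stage that the labels call throat at 48 and the one they call incubation at 72. All groups share strain and genotype and differ in age, and the sources used here do not give the number of embryos per library. Without replicates, no test of a difference between stages was possible, and every interval below is a 95% interval that covers counting error only.

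A circRNA forms when the spliceosome joins the 5′ splice site of a downstream exon to the 3′ splice site of an upstream exon. It is recognised in sequencing by reads that align across this reversed junction, so its span is a distance in the reference genome and not the length of the RNA. In the early zebrafish embryo, RNA loaded into the egg by the mother is cleared while the embryo's own genome begins to be transcribed, and circRNAs, which lack free ends, tend to be more stable than linear RNA.

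The blastula library held the most long back-splices and, by a wide margin, the most reads on them. From 4.5 to 72 hpf, 117, 105, 68, 78 and 77 were listed. As a share of the circRNAs listed outside chromosome 4 these were 4.26% (3.54 to 5.08), 3.55% (2.91 to 4.28), 3.82% (2.98 to 4.81), 3.15% (2.50 to 3.91) and 3.53% (2.80 to 4.39), and the intervals of all 5 libraries overlapped. Their reads differed more, with 2197, 874, 750, 847 and 1173 in the same order. They took 11.0% (10.6 to 11.4), 3.63% (3.40 to 3.88), 7.98% (7.44 to 8.55), 5.45% (5.10 to 5.82) and 6.38% (6.03 to 6.74) of the junction reads, and none of these 5 intervals overlapped.

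The authors scaled reads to library depth as SRPBM, in which 1 read was worth 0.101, 0.0872, 0.103, 0.102 and 0.122 SRPBM from 4.5 to 72 hpf. On that scale the long back-splices summed to 222, 76.2, 77.2, 86.2 and 143 SRPBM. Per depth 4.5 hpf was therefore highest, 8, 24 and 48 hpf were close to each other, and 72 hpf lay between. The gastrula library was lowest on both scales, and its distance from 24 and 48 hpf was small per depth and larger as a share of reads. Counting reads on chromosomes alone, without unplaced scaffolds and the mitochondrion, its share was 5.71%. It was still the lowest, with 8.11%, 6.18% and 7.27% at 24, 48 and 72 hpf. No interval is given for the shares on chromosomes alone, so it is not shown that they lie apart as those of all junction reads did. In whole embryos, fewer cells that hold an RNA and less of it per cell cannot be told apart.

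**Figure D1:**
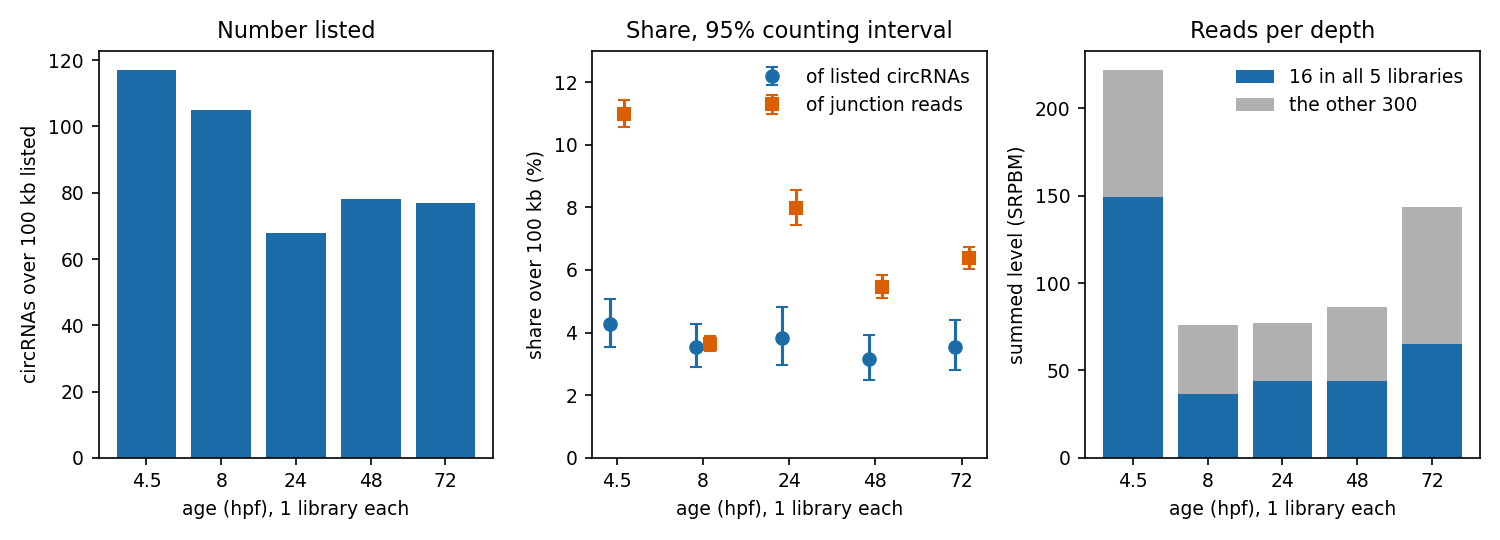
Number of circRNAs over 100 kb listed in each library (left), their share of listed circRNAs and of junction reads with 95% counting intervals (middle), and their summed level in SRPBM (right), split into the 16 listed in all 5 libraries and the rest. The 4.5 hpf library is highest in every panel, at 117 circRNAs, 11.0% of reads and 222 SRPBM.

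A few junctions carried the signal. The 24 listed in 4 or 5 libraries held 4130 of the 5841 reads. In the blastula the 3 most abundant held 42.2% of the long reads, against 22.9% to 25.0% in the other libraries. Without the 3 most abundant of each library, the share of junction reads was 6.66% in the blastula, 2.82% in the gastrula and 6.22% at segmentation, so the gap between the first and the last of these was small without those junctions. The typical member had few reads, with a median per library of 3 to 5 reads, against 3 for shorter circRNAs in every library. The lowest count in the tables was 2, and the share of listings with that count ran from 23.4% at 72 hpf to 32.4% at 24 hpf for long back-splices and from 31.8% at 4.5 hpf to 49.4% at 24 hpf for shorter ones.

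Most long back-splices were listed at a single stage, while a small group was listed at every stage. Of the 316, 258 were listed in 1 library (81.6%, 76.9 to 85.8), 27 in 2, 7 in 3, 8 in 4 and 16 in all 5. Among the 8943 circRNAs of at most 100 kb outside chromosome 4, 80.7% were listed in 1 library (79.8 to 81.5). The share listed in all 5 was 5.06% for long back-splices (2.92 to 8.09) and 1.15% for shorter ones (0.941 to 1.40). The 16 held 56.2% of all long reads, and the 258 held 19.8%.

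Level went together with sharing. All of the 16 reached at least 20 reads in some library, a level that 32 long back-splices reached in total. Of those 32, 29 were listed in 2 or more libraries (90.6%, 75.0 to 98.0), against 74.2% of 236 shorter circRNAs with as many reads (68.1 to 79.6). Of the 284 long back-splices that stayed under 20 reads, 29 were listed in 2 or more libraries (10.2%, 6.95 to 14.3), against 17.9% of 8707 shorter ones (17.1 to 18.7). With few reads the share was lower for long back-splices and the intervals did not overlap, and with many reads it was higher and the intervals overlapped.

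Relative to the number listed, pairs among the 3 later libraries had more long back-splices in common than pairs with the blastula or gastrula. The 48 and 72 hpf libraries had 32 in common, with a Jaccard index of 0.260, which divides the shared circRNAs by those found in at least 1 of the pair. The index was 0.25 for 24 and 72 hpf with 29 shared, and 0.227 for 24 and 48 hpf with 27 shared. Every pair that included 4.5 or 8 hpf had an index between 0.135 and 0.166. For 4.5 and 8 hpf, 27 were shared, which is 23.1% of those at 4.5 hpf and 25.7% of those at 8 hpf. Among shorter circRNAs the index ran from 0.0672 to 0.125 for pairs that included 4.5 or 8 hpf, with 4.5 and 8 hpf highest. For pairs among the 3 later libraries it ran from 0.119 to 0.133, so these ranges overlapped. The blastula alone listed 82 long back-splices, with 385 reads, and the gastrula alone 69, with 247 reads. The later libraries each listed 33 to 38 that no other did. From 4.5 to 72 hpf these made up 70.1%, 65.7%, 48.5%, 46.2% and 49.4% of the long back-splices of the library. Among shorter circRNAs the shares listed in no other library were 66.1%, 64.2%, 52.1%, 61.9% and 60.1%. Of the sets of several stages, all 5 together was the most common, followed by 4.5 and 8 hpf with 6 circRNAs and 48 and 72 hpf with 5.

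The 16 long back-splices of all stages were mostly highest in the blastula. Per depth, 12 peaked at 4.5 hpf, 2 at 48 hpf, 2 at 72 hpf and none at 8 or 24 hpf. When scaled to total junction reads, with TMM and with DESeq2's median of ratios, 9, 10 and 8 of them peaked at 4.5 hpf. Of the 103 shorter circRNAs listed in all 5 libraries, 42 peaked at 4.5 hpf per depth, and 35, 31 and 26 under those scalings. Between 4.5 and 8 hpf, 14 of the 16 were lower per depth, and 11 under the median of ratios. Of the 103 shorter ones, 70 and 49 were.

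The most abundant junction of all was chr16:55075739-55381521, a span of 305783 bp whose end is the largest position listed on chromosome 16. It had 318, 93, 58, 87 and 89 reads from 4.5 to 72 hpf, and it ranked among the 5 most abundant long back-splices in every library. Its level lay between 32.1 SRPBM in the blastula and 5.97 at segmentation, a 5.38-fold range (4.05 to 7.24). Here and below, a range compares the highest with the lowest library, and its interval does not cover that choice. A single shorter circRNA lay within this junction, chr16:55357151-55359601, listed at 8 hpf with 4 reads.

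Next came chr2:57502503-57945198, which spanned 442696 bp and had 412, 51, 19, 27 and 49 reads. It was high in the blastula and low afterwards, with a 21.3-fold range (13.4 to 35.7), and no shorter circRNA of any library lay within it. On the same chromosome near the opposite end, chr2:2776735-3075246 had 82, 43, 40, 27 and 36 reads, a 3.01-fold range (1.93 to 4.84), and likewise enclosed no shorter circRNA.

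Several others shared the course with the blastula on top. The junction chr12:47022122-47162787 had 131, 31, 28, 5 and 12 reads, the widest range of the 16 at 26.0-fold (10.9 to 81.4). The reads of chr13:33339795-33581143 were 87, 26, 7, 8 and 13, and those of chr17:640948-1093842 were 46, 4, 9, 4 and 8. Their ranges were 12.2-fold (5.67 to 31.2) and 13.3-fold (4.86 to 51.0). With few reads after the blastula, chr22:26486465-26664364 had 22, 3, 3, 9 and 7.

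A second course was high at both ends of the series. The reads of chr25:413673-531318 were 41, 3, 12, 8 and 29, those of chr16:53931811-54053484 were 37, 7, 4, 7 and 24, and those of chr15:46764879-46940981, not listed at 24 hpf, were 197, 31, 0, 17 and 58. For the last, 4.5, 48 and 72 hpf had 19.9, 1.73 and 7.10 SRPBM, and 72 over 48 hpf was 4.10-fold (2.36 to 7.51). This return at 72 hpf was larger than counting error in that junction, and it rests on 1 library.

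Other long back-splices were higher after the gastrula. On chromosome 21, chr21:395935-550030 had 9, 9, 50, 44 and 64 reads, and 24 over 8 hpf was 6.56-fold (3.20 to 15.2). A junction of 373304 bp, chr13:51311159-51684462, had 27, 9, 38, 81 and 65 reads and peaked at 48 hpf, with a 10.5-fold range (5.27 to 23.8). The reads of chr20:1561450-1863282 were 29, 36, 68, 37 and 60. Not listed at 8 hpf but at every other stage were chr6:2595911-2996003 with 4, 0, 30, 39 and 43 reads, chr15:43184266-43507359 with 3, 0, 16, 28 and 48, and chr9:52751544-53055170 with 11, 0, 25, 22 and 22. These 3 spanned 400093, 323094 and 303627 bp.

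The steadiest was chr13:51518779-51663458, with 66, 52, 44, 44 and 30 reads and a 1.82-fold range (1.16 to 2.90). A similar evenness was seen for chr10:44421810-44525449, with 24, 24, 17, 10 and 14 reads and a 2.38-fold range (1.10 to 5.58). With lower counts, chr7:68979742-69095855 had 5, 13, 6, 20 and 11 reads. Among those listed in 4 libraries, chr16:204546-398679 had 0, 17, 24, 8 and 17 reads, chr18:2924933-3312665 had 13, 7, 0, 3 and 5, and chr23:44348680-44500254 had 12, 3, 4, 0 and 3.

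**Figure D2:**
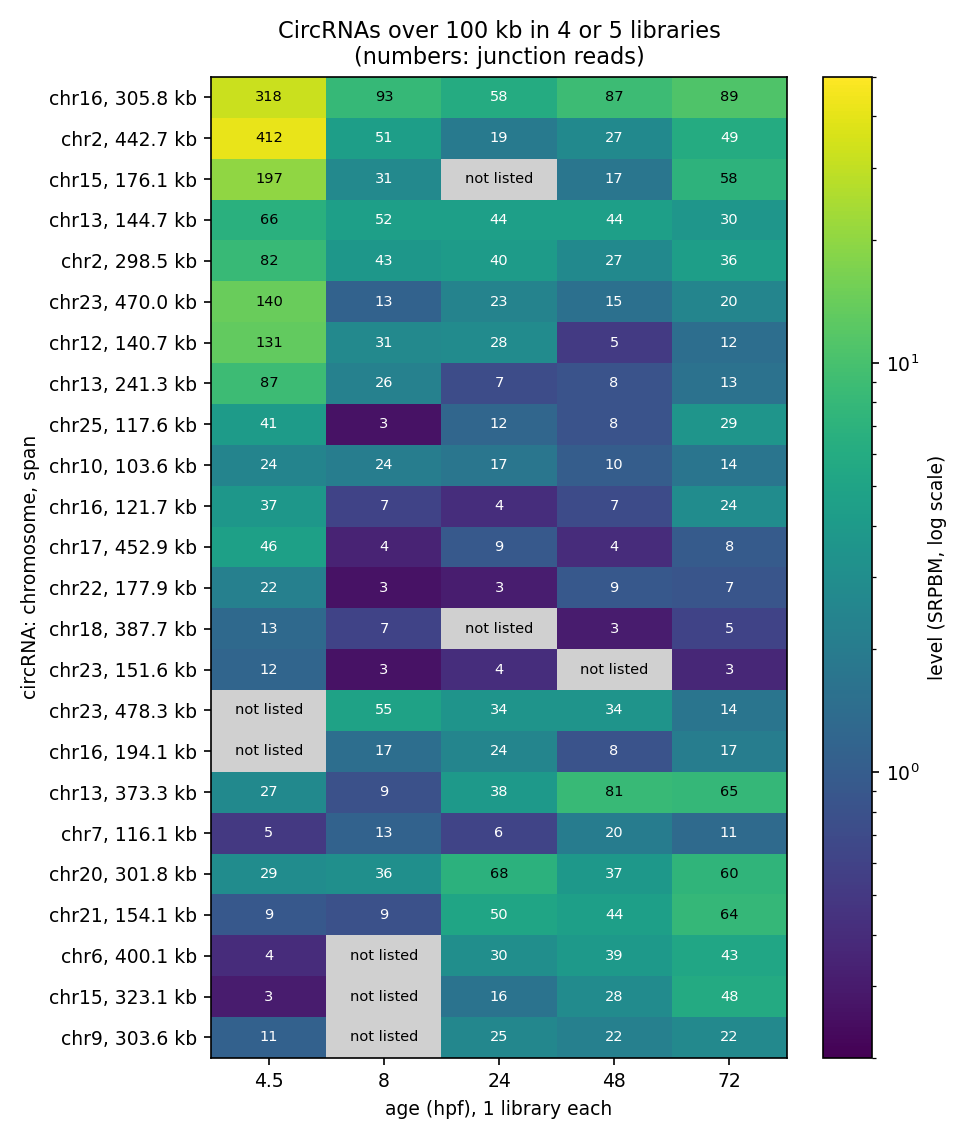
Level in SRPBM (colour, log scale) and junction reads (numbers) of the 24 circRNAs over 100 kb listed in 4 or 5 libraries, 1 row each, named by chromosome and span and ordered by the age of their peak; grey marks a library in which the circRNA was not listed. Most rows are brightest at 4.5 hpf, led by the 442696 bp junction of chromosome 2 with 412 reads, and the lowest rows are brightest at 72 hpf.

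Between consecutive stages, a circRNA with at least 10 reads over both libraries was called higher or lower where its level per depth differed by 2-fold or more. Where only 1 of the pair listed it, the other was given 3 reads, so that the ratio is a bound ("at least"). Such a bound assumes that too few reads, and not placement elsewhere, kept the junction off the list. At every step the interval of a bound was computed with 1 read for the unlisted library, not 3. With 3 reads these intervals would lie nearer to equal levels, so the counts of intervals that exclude them depend on this choice. From 4.5 to 8 hpf, 24 of 36 long back-splices were lower (66.7%) and 7 were higher, where 49.9% of the 527 circRNAs tested were lower and 19.9% higher. Of the 24, 9 rest on a bound, and for 23 the interval excluded equal levels. The median log2 ratio was -1.97 for the long ones and -0.98 for all.

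Ranked by the bound of the interval nearest to no difference, the lower ones were led by chr23:36354198-36824234, with 140 and then 13 reads, 12.5-fold lower (7.06 to 24.0). The junctions chr2:57502503-57945198 and chr15:46764879-46940981 were 9.36-fold (6.98 to 12.8) and 7.36-fold lower (5.02 to 11.1). With larger ratios but only 3 and 4 reads left at 8 hpf, chr25:413673-531318 and chr17:640948-1093842 were 15.8-fold (5.05 to 79.9) and 13.3-fold lower. Of the 7 higher, 6 were not listed at 4.5 hpf, led by chr23:36354198-36832487, with 55 reads at 8 hpf and at least 15.8-fold higher. It shares its start with the first of the lower ones.

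From 8 to 24 hpf, 13 of 30 long back-splices were higher and 7 were lower, where 24.4% of 377 circRNAs were higher and 44.3% lower. The long ones thus had more higher than lower calls (43.3% against 23.3%), the reverse of all circRNAs tested, and the median log2 ratio was 0.12 for long and -0.76 for all. The interval excluded equal levels for 12 of the 13 and all of the 7. When scaled to total junction reads, which shifts every log2 ratio at this step by 1.12, the long ones split into 18 higher and 3 lower. The matching shares over all circRNAs, which shift as well, are not given here. Named among the higher were chr6:2595911-2996003 (at least 11.8-fold), chr9:52751544-53055170 (at least 9.85-fold) and chr12:16471353-16798077, listed at 24 hpf alone with 22 reads (at least 8.66-fold). Of the lower, chr15:46764879-46940981 went from 31 reads to not listed, at least 8.75-fold lower.

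Lower at 24 hpf as well were 3 of the 4 long back-splices of 1 region of chromosome 3. There, chr3:7385218-7625601 had 24 reads at 8 hpf and 4 at 48 hpf, chr3:7385218-7644348 had 21 at 8 hpf and 4 at 24 hpf, and chr3:7219442-7419163 had 15 at 8 hpf only. The other one, chr3:7163371-7284769, had 3 reads at 72 hpf only, and the region had 0, 60, 4, 4 and 3 reads on long back-splices. A shorter circRNA with the start of the first 2, chr3:7385218-7410463, had 55, 38, 0, 0 and 16 reads, so the shared start was in use at 4.5 hpf too.

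From 24 to 48 hpf, 10 of 32 were higher and 7 lower, where 43.4% of 341 circRNAs were higher and 22.3% lower. The shares of the long ones were 31.3% and 21.9%. The interval excluded equal levels for 9 of the higher and 6 of the lower. Scaled to total junction reads the split was 8 higher and 12 lower, so the direction of the balance depended on the scaling, and with TMM it was 9 and 9. For these scalings the shares over all circRNAs are not given, so the splits cannot be set against them. The largest ratio that rests on reads in both libraries was that of chr8:53704190-54058895, with 0, 0, 3, 22 and 14 reads, 7.24-fold higher at 48 hpf (2.18 to 37.8). Listed from 48 hpf alone, chr18:47443382-47843816 had 23 and then 48 reads, and chr22:27267432-27634075 had 18 and 17. On the lower side, chr12:47022122-47162787 was 5.67-fold lower (2.16 to 18.8).

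From 48 to 72 hpf, 15 of 35 were higher and 4 lower, where 34.1% of 417 circRNAs were higher and 21.8% lower. The share higher was 42.9%, and the interval excluded equal levels for 12 of the 15. When scaled to total junction reads the split was 9 higher and 5 lower, again without the matching shares over all circRNAs. The highest was chr25:8118429-8316115, which was listed at 72 hpf alone with 115 reads, the most of any long back-splice in that library, and was at least 46.1-fold higher. Also listed at 72 hpf alone, chr9:22265080-22401787 had 24 reads (at least 9.62-fold). Ratios from reads in both libraries were 8.72-fold (3.06 to 34.1) for chr24:37086321-37388923, with 4 and 29 reads, and 7.51-fold (2.59 to 29.7) for chr25:9696010-9990352, with 4 and 25.

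Some long back-splices shared a start or an end with each other, and in some of these sets the junction used differed between stages. In all, 73 of the 316 shared an exact start or end with another long back-splice, over 19 starts and 16 ends. A case with many reads was the start at 36354198 on chromosome 23, joined to 3 ends. The junction to 36824234 had 140, 13, 23, 15 and 20 reads, that to 36832487 had 0, 55, 34, 34 and 14, and that to 36824238, 4 bp from the first, had 12 reads at 24 hpf alone. In the blastula all 140 reads of this start used the end at 36824234, and in the gastrula 19.1% of 68 reads did. The share was 33.3% of 69 reads, 30.6% of 49 and 58.8% of 34 in the libraries that followed. Counted together with the end 4 bp away, it was 35 of the 69 reads at 24 hpf. The farther end, 8253 bp downstream of the first, took most or all of the remaining reads. The 3 spans were 470037, 470041 and 478290 bp, and the longest ranks among the 5 longest junctions found.

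**Figure D3:**
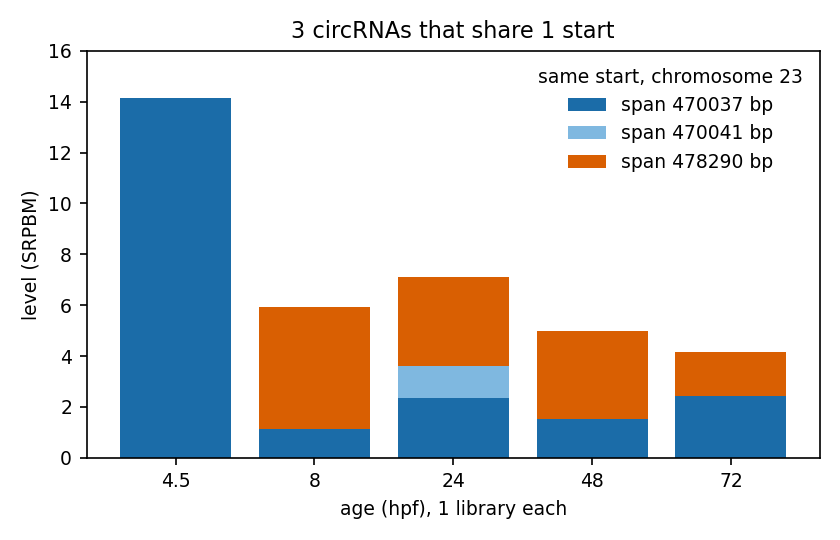
Level in SRPBM at each age of the 3 circRNAs of chromosome 23 that share the start at 36354198, stacked and coloured by span. The 470037 bp junction stands alone at 4.5 hpf with 140 reads, and the 478290 bp junction is the largest part at 8 hpf with 55 reads.

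The start with the next most reads, 51518779 on chromosome 13, was also joined to 3 ends, and there the junction used did not shift. It had 68, 54, 44, 44 and 30 reads, of which 97.1%, 96.3%, 100%, 100% and 100% were on chr13:51518779-51663458.

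A set of 3 junctions used the end at 9990352 on chromosome 25. At 4.5 hpf the starts were 9621745 with 14 reads and 9822725 with 6, and from 24 hpf on the start was 9696010, with 2, 4 and 25 reads. No start of this set was listed both at 4.5 hpf and later.

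Long back-splices that differed by at most 1 kb at each end formed 11 groups with 25 of the 316, some of them among the sets with a shared start or end. For chr15:155239-516473 with 50, 10, 8, 0 and 0 reads, 2 neighbours differed from it by at most 313 bp at each end, and 1 of them, chr15:155266-516473, was listed at 48 hpf. On chromosome 21, 6 long back-splices between 20741603 and 20890660 spanned 102447 to 115038 bp at shifted positions and were each listed at 1 stage, with 34 reads in all. Whether such sets are separate junctions or placements of fewer junctions was not determined.

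Long back-splices lay nearer to chromosome ends than shorter circRNAs did in these tables. Chromosome lengths were taken as the largest end position listed in any table, because the sources used here name no genome build. By that measure, 117 of 316 long back-splices had their midpoint in the outer 10% at either end (37.0%, 31.7 to 42.6), against 25.1% of 8786 shorter circRNAs on the same chromosomes (24.2 to 26.1) and 24.7% of the 438 that spanned 50 to 100 kb (20.7 to 29.0). Among 10 equal bins along the chromosome, the first held 58 and the last 59 of them, while those between held 17 to 36 each. In 3 chromosomes the largest listed position was itself the end of a long back-splice.

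The persistent ones had the largest share in the outer 10%. Of the 24 listed in 4 or 5 libraries, 20 were in the outer 10% (83.3%, 62.6 to 95.3), 8 toward the start of a chromosome and 12 toward its end. The share was 32.2% of those listed in 1 library (26.5 to 38.2). Among shorter circRNAs it was 37.5% of 251 listed in 4 or 5 libraries (31.4 to 43.8) and 24.2% of those listed in 1 (23.2 to 25.2). Position also went with level. With 20 reads or more in some library, 65.6% of 32 long back-splices were there (46.8 to 81.4). The share was 43.0% of 221 shorter circRNAs with as many reads (36.4 to 49.8), and these 2 intervals overlapped. Distance was also measured to the start of the chromosome's coordinates or to its largest listed position, whichever was nearer. It had a median of 1.62 Mb for the 24, against 9.02 Mb for those listed in 1 library, and 9 of the 24 were within 1 Mb. By this distance the 7 listed in 3 libraries were nearer still, with a median of 0.246 Mb and 4 of them within 1 Mb. Of the 24, the 4 outside the outer 10% were chr13:33339795-33581143, chr22:26486465-26664364 and the pair on chromosome 23 with the shared start.

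Position also went with span. Of the 70 junctions over 300 kb, 38 were in the outer 10% (54.3%, 41.9 to 66.3), against 32.1% of the 246 up to 300 kb (26.3 to 38.3). The 300 kb cut, here and below, was not set in advance, and the intervals do not cover its choice. By stage, the blastula library had 54.7% of its 117 long back-splices there (45.2 to 63.9), the gastrula library 36.2% of 105 (27.0 to 46.1), and the 3 later ones 45.6% to 49.4%. The intervals of all libraries overlapped, and long back-splices listed in several libraries count in each of them. For shorter circRNAs the share was lowest at 4.5 hpf, at 22.9%, and ran from 26.8% to 28.8% later.

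**Figure D4:**
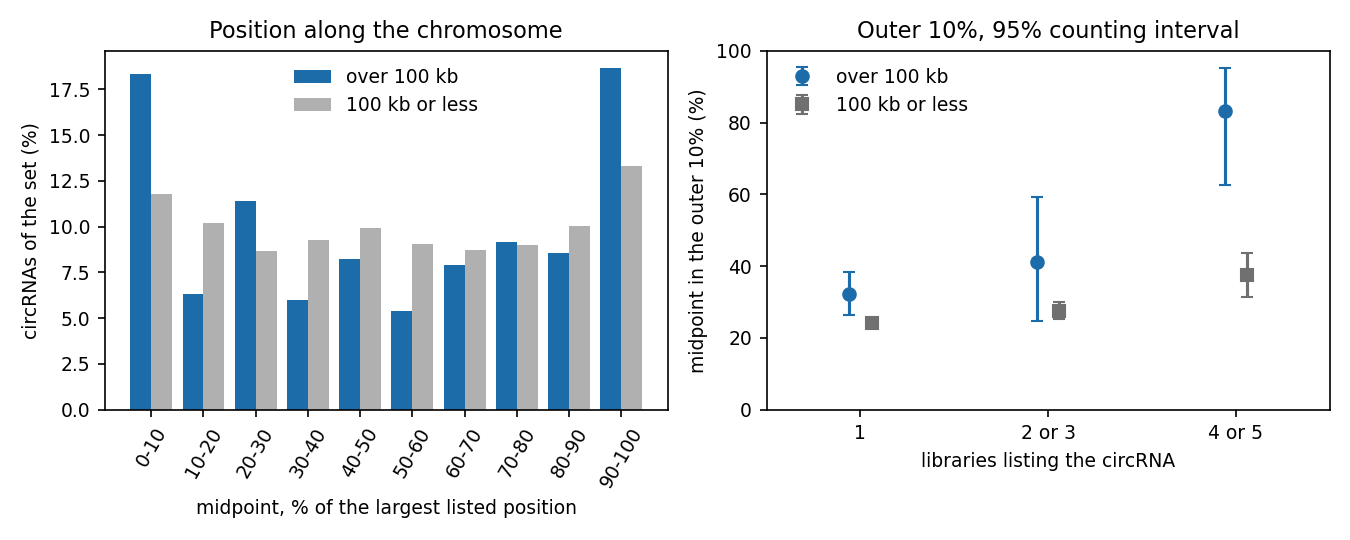
Left, midpoints of circRNAs over 100 kb (blue) and of shorter ones (grey) in 10 equal bins of the chromosome, as a percent of each set. Right, the percent of each set with its midpoint in the outer 10% by the number of libraries, with 95% counting intervals. The first and last bins hold 58 and 59 long back-splices, and 83.3% of those in 4 or 5 libraries are in the outer 10%.

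Chromosome 22 held more long back-splices than any other, and most of them were rare. It had 45 of the 316 (14.2%), against 3.63% of the shorter circRNAs and 3.11% of the summed chromosome length. Next were chromosome 16 with 23 and chromosomes 12 and 13 with 19 each, and chromosome 14 had fewest, with 4. On chromosome 22, 37 lay in 7.95 Mb between 1455069 and 9407270, a stretch chosen after its values were seen. Of these 37, 34 were listed in 1 library, none had more than 14 reads in a library, and together they had 181 reads. From 4.5 to 72 hpf, 11, 8, 11, 3 and 7 of them were listed.

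Merging overlapping long back-splices gave 203 regions, 152 of them with a single member. The 2 with the most members were on chromosome 22, where 1455069 to 2845650 held 15 overlapping junctions and 7467321 to 8224763 held 9, each listed in 1 library. A region of 6, 9010608 to 9407270, was level in number with a region each of chromosomes 16 and 21. Of its 6, 4 were listed in 1 library, and the region had 0, 0, 25, 5 and 10 reads, so it was listed only from 24 hpf on. Without chromosome 22, the share of long back-splices in the outer 10% was 36.5% and the share listed in 2 or more libraries was 19.2%, close to 37.0% and 18.4% with it.

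Shorter circRNAs lay inside most long back-splices, but seldom many. Over all libraries, 227 of the 316 enclosed at least 1 circRNA of at most 100 kb (71.8%, 66.5 to 76.7), the median was 1 and the most was 13. Counting only shorter circRNAs of the same library, 188 of the 445 listings enclosed one (42.2%, 37.6 to 47.0). From 4.5 to 72 hpf the share was 48.7% (39.4 to 58.1), 53.3% (43.3 to 63.1), 25.0% (15.3 to 37.0), 29.5% (19.7 to 40.9) and 45.5% (34.1 to 57.2). In the same order, 2629, 2854, 1714, 2399 and 2103 shorter circRNAs were listed. The library with fewest, 24 hpf, had the lowest share and that with most, 8 hpf, the highest, but 48 hpf listed more than 72 hpf and had a lower share, and the part of this number in the result was not tested. In 99 of the 188 listings, the enclosed circRNAs together had more reads than the long junction itself.

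In total 410 different shorter circRNAs were enclosed. The merged regions held 9.89 midpoints of shorter circRNAs per Mb, against 6.86 per Mb outside them. Over all 316, with the 89 that enclosed none counted as 0%, the enclosed circRNAs covered a median of 6.23% of the long span. For some, such as chr11:29180229-29304811, the cover was 100%. Per 100 kb of span, long back-splices listed in 1 library enclosed 0.966 shorter circRNAs and those listed in 4 or 5 enclosed 0.721.

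Some abundant long back-splices enclosed none, but the share that enclosed at least 1 shorter circRNA was not lower among abundant ones. It was 78.1% of the 32 with 20 reads or more in some library and 71.1% of the 284 under 20 reads. The intervals of these 2 shares overlapped. Of the 24 in 4 or 5 libraries, 75.0% enclosed at least 1 shorter circRNA (53.3 to 90.2), close to 71.7% of those in 1 library (65.8 to 77.1). The 6 with none inside included both persistent junctions of chromosome 2. At the other extreme, chr11:29180229-29304811, listed at 72 hpf alone with 3 reads, enclosed 13, and chr11:29100511-29285685, listed at 8 hpf alone with 5 reads, enclosed 11. Both lay over a set of junctions that reuse a few positions, of which chr11:29276881-29285685 had 18, 9, 2, 0 and 4 reads. On chromosome 23, 4 overlapping long back-splices with the starts 42300478 and 42300481 enclosed 8 each.

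Where an enclosed circRNA had many reads, its course and that of the long junction were not alike in each case. The long junction chr13:51311159-51684462 (27, 9, 38, 81 and 65 reads) enclosed 7 circRNAs, of which chr13:51515225-51523661 had 73, 57, 100, 38 and 43 reads. The enclosed one was at its highest at 24 hpf and the enclosing one at 48 hpf. The steady chr13:51518779-51663458 begins inside that shorter circRNA, so these 3 junctions overlap, near the largest position listed on chromosome 13. The most enclosed reads lay in chr11:43976549-44078586, itself listed at 4.5 hpf alone with 3 reads, around chr11:44020549-44026831 with 157, 164, 100, 116 and 81 reads. Similarly, chr2:58581735-58841041, with 4 reads at 4.5 hpf and 13 at 72 hpf, enclosed chr2:58761121-58761784 with 40, 20, 32, 47 and 47. On chromosome 15, chr15:21024776-21223629 (3 reads at 8 hpf) lay over 7 shorter circRNAs with 194 reads, and on chromosome 22, chr22:1486126-1923723 (8 reads at 4.5 hpf) lay over 7 with 156.

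The share with a start or end in common with a shorter circRNA was lower among those over 300 kb. Over all libraries, 107 of the 316 did so (33.9%, 28.7 to 39.4), 70 at the start, 53 at the end and 16 at both. Of the 246 that spanned up to 300 kb, 102 did (41.5%, 35.2 to 47.9), and of the 70 over 300 kb, 5 did (7.14%, 2.36 to 15.9). By number of libraries, 91 of the 258 listed in 1 library shared an end (35.3%, 29.4 to 41.4), 10 of the 27 in 2 libraries did (37.0%, 19.4 to 57.6), 3 of the 7 in 3 libraries did (42.9%, 9.90 to 81.6) and 3 of the 24 in 4 or 5 libraries did (12.5%, 2.66 to 32.4). These intervals overlapped, and the median span was 152282 bp for those in 1 library and 269930 bp for those in 4 or 5. Within the same library the share was 23.1% in the blastula and 27.6% in the gastrula, and 2.94%, 8.97% and 6.49% in the later libraries.

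Among those that did share, chr3:62002015-62102688, with 0, 3, 3, 6 and 0 reads, used an end that 5 shorter circRNAs also used, the most abundant being chr3:62092208-62102688 with 43, 4, 0, 0 and 0. Both positions of chr24:37086321-37388923 were shared. Its start was that of chr24:37086321-37090985 (12, 2, 0, 4 and 3 reads) and of chr24:37086321-37118108 (5, 4, 0, 0 and 0). Its end was that of chr24:37388255-37388923 (2 reads at 8 hpf). The long junction itself had 0, 0, 3, 4 and 29 reads, so it was highest at 72 hpf. There, chr24:37086321-37090985 had 3 reads and the other partner at the start was not listed.

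**Figure D5:**
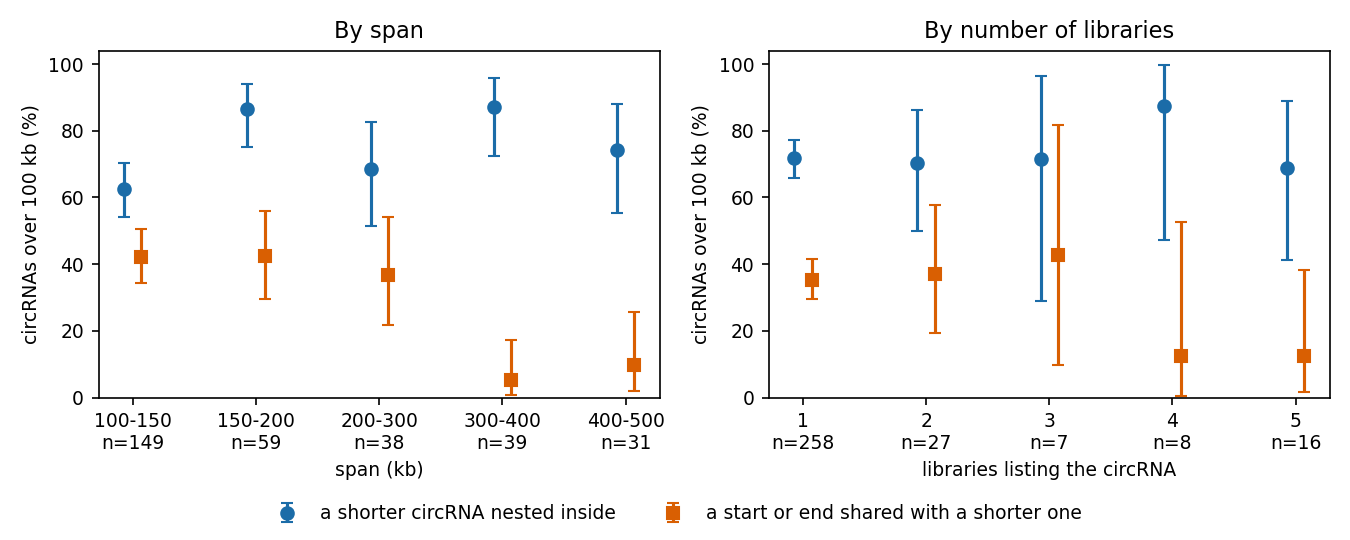
Percent of circRNAs over 100 kb that enclosed a shorter circRNA (blue circles) or shared an exact start or end with one (orange squares), by span (left) and by the number of libraries listing them (right), with 95% counting intervals and the number of circRNAs under each class. Sharing an end is 41.5% up to 300 kb and 7.14% above.

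The 5 longest junctions spanned 476303 to 487498 bp. Of these, 4 were listed in 1 library with 2 to 5 reads, close to the 81.6% of all long back-splices listed in 1 library, namely chr13:33355021-33842518, chr8:31239694-31726634, chr21:29459965-29941250 and chr22:2234649-2710951. The exception was chr23:36354198-36832487 with 137 reads in 4 libraries. Across spans, the share listed in 2 or more libraries was 15.4% up to 300 kb (11.2 to 20.6) and 28.6% over 300 kb (18.4 to 40.6), and both groups held almost the same number of reads, 2918 and 2923.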

How the data were processed

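Whole numbers of back-splice junction reads per circRNA, counts in the deposited library tables, had not been normalized, and the lowest count listed was 2. A deposited series table gave the 1829 circRNAs listed in at least 2 libraries, with a score named SRPBM in the file headers, which the authors scaled to library depth. SRPBM equalled the count times 1 constant per library, and that constant was applied here to all counts. Counts of the tables had 0 mismatches. The submitters' processing notes list BWA (0.7.5a-r405) and edgeR (3.12.1) but not what each was used for. The sources used here name neither the circRNA caller nor the genome build, so positions stand as deposited. No genome of that build was used here, so no sequence and no host gene is given.

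Outside chromosome 4 the libraries held 19990, 24065, 9399, 15529 and 18385 junction reads from 4.5 to 72 hpf, on 2746, 2959, 1782, 2477 and 2180 circRNAs. Sharing required the same chromosome, start and end. Shares carry exact Clopper-Pearson intervals and ratios the exact conditional interval of a pair of Poisson counts, at 95%. Intervals treat reads or circRNAs as independent, which reads without molecular identifiers and overlapping circRNAs are not. For the intervals of bounds and for ranking, a circRNA not listed was set at 1 read. Python 3.11.15, numpy 2.4.6, pandas 2.3.3, scipy 1.17.1 and matplotlib 3.10.9 were used, with TMM factors from edgeR 4.0.16 and size factors from DESeq2 1.42.0 in R 4.3.3. The ratio intervals and the recovery of set changes by the calls were checked on simulated Poisson counts, the model that the intervals assume. That check did not cover the intervals of bounds or the rate of false calls. No replicate-based test was possible with 1 library per stage.

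The set of circRNAs, the rules and the lists were chosen with earlier results of these data known. Those named were listed in at least 4 libraries, or had the most reads in a library (5 each), the widest interval-bounded ratios (5 per direction and step), the longest spans (5) or the most enclosed circRNAs or enclosed reads (5 each), or lay in the 3 largest regions or beside the threshold (3 on each side). Others, among them the groups with a shared start or end and all shorter circRNAs, were chosen after their values were seen.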

Additional observations from a re-analysis of the deposited data

How the results depend on the processing

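No paired analysis was possible because each stage had 1 library. Chromosome 4 and its circRNAs are not analysed here. Counting only those with at least 5 reads, 53, 40, 30, 37 and 41 long back-splices were listed from 4.5 to 72 hpf, which were 5.85%, 5.15%, 8.29%, 5.76% and 7.54% of circRNAs, and 26.7% of long back-splices were listed in 2 or more libraries. Over 50 kb there were 291, 247, 153, 156 and 161, and over 200 kb 45, 33, 28, 37 and 32. Thinned to the fewest junction reads of any library, the blastula and gastrula would list 74.2 and 51.9 on average (68, 59.0 and 53.7 later). The blastula thus stayed highest, while the gastrula did not stay above the later libraries and was lowest.

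Without the most abundant long back-splice of each library, the shares of reads were 9.12%, 3.26%, 7.31%, 4.92% and 5.79%, and without the 3 most abundant, chosen after seeing the data, 6.66%, 2.82%, 6.22%, 4.15% and 4.99%, which left 4.5 and 24 hpf close to each other. On chromosomes alone the shares at 8, 48 and 72 hpf were 5.71%, 6.18% and 7.27%. Leaving out a library, 16.1% to 20.5% were listed in 2 or more of the rest.

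Calls between stages are given here in step order, from 8 over 4.5 hpf to 72 over 48 hpf. At least 20 reads gave 3, 7, 4 and 11 higher and 14, 5, 3 and 1 lower. No minimum gave 12, 17, 11 and 24 higher and 43, 9, 12 and 5 lower. A fold of 4 gave 5, 9, 5 and 8 higher and 17, 4, 4 and 1 lower. Scaling to total junction reads gave 7, 18, 8 and 9 higher and 24, 3, 12 and 5 lower. The numbers tested and the shares over all circRNAs under these settings are not given. The counts therefore show only how the calls depend on the settings, and not how long back-splices differ from other circRNAs. Scaling to total junction reads shifts every log2 ratio by -0.06, 1.12, -0.71 and -0.51 in step order. TMM shifts them by 0.49, 0.17, -0.29 and -0.17, and the median of ratios by 0.70, 0.03, -0.00 and -0.35.

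The outer 5% of chromosomes held 19.0% of long back-splices (14.8 to 23.8), against 13.8% of shorter circRNAs (13.1 to 14.6). For the outer 20% the shares were 51.9% (46.2 to 57.5) and 45.4% (44.3 to 46.4), and there the intervals overlapped. The outer 10% held 44.0% of long back-splices with at least 5 reads in some library. Enclosed circRNAs were found in 17.8% of listings when they needed at least 5 reads and in 72.1% when taken from any library.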
